A study of Mus musculus with 15 samples.

Results

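The 42 genes described here encode the parts with which a mitotic chromosome is built, attached to the spindle and held until all attachments are made. They are centromere and kinetochore proteins, the spindle checkpoint, the chromosomal passenger complex, condensin with topoisomerase II alpha, and separase with its inhibitor securin. The genes were chosen by symbol, with earlier results of these data known. All 42 are among the 24421 symbols of both deposited tables and have an adjusted p at both times. RNA was sequenced from an established C57BL/6 biliary epithelial line of genotype ITR-CreERT2;Klf5flox/flox. The libraries were 3 given ethanol and 4 given 4-OH tamoxifen for 12 h, and 4 of each for 24 h, 15 in all. Ethanol and tamoxifen libraries share the line, the inducible recombinase and the floxed Klf5 alleles, so an effect of tamoxifen, of the recombinase or of Klf5 loss cannot be told apart. The labels name 1 established line and do not say whether replicates were separate cultures, so the spread behind each p-value may be technical. The source is given as adult biliary ducts, while the growth form is not settled by the sources used here, since the title speaks of structures in vitro and the design text of structures in vivo.

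The kinetochore is assembled on centromeric chromatin that carries the histone variant Cenpa. A constitutive network of further Cenp proteins binds this chromatin, and the Ndc80 complex and its helpers bind microtubules. Kinetochores without proper attachment recruit the Mad and Bub proteins, which restrain the anaphase promoting complex. The kinase Aurkb corrects wrong attachments, condensin and topoisomerase compact and untangle the chromatids, and separase cuts cohesin once securin is destroyed. Many of these genes are transcribed late in the cell cycle, in G2 and mitosis, so in a bulk library a larger share of cells in mitosis and more RNA per cell cannot be told apart.

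The files hold, for each time, the authors' comparison of tamoxifen with ethanol and no value per library, so a gene's level is given as the mean normalised count over all libraries of a time. The level in each arm was derived from that mean, the fold and the number of libraries, and has no error of its own. Klf5, the Krüppel-like transcription factor that was targeted, fell at both times in the authors' deposited table, with log2 folds of -1.29 (12 h, SE 0.23) and -1.72 (24 h, SE 0.08). Over all genes the means summed to 13.9 M normalised counts at 12 h and 11.8 M at 24 h. Among the epithelial markers checked, Krt19, Spp1 and Cdh1 had 24 h means of 6700 (Krt19), 14407 (Spp1) and 1851 (Cdh1) in the authors' deposited table, while the means of Epcam, Onecut1 and Cftr were 9.56, 3.22 and 12.7. Of 10 biliary markers 1 rose and 2 fell (Tspan8 and Krt19) at 24 h, with a median log2 fold of 0.11 over the list, and 1 (Krt7) fell at 12 h; their part in the results on the 42 genes was not tested. Of 8 hepatocyte markers 3 had a 24 h mean of 0, while Hnf4a and Apoa1 stood at 4146 and 448, and none was called. Of 7 fibroblast, 6 endothelial and 6 immune markers, 4, 3 and 3 had a mean of 0 at 24 h, and Cd68 at 76.1 and Col1a1 at 10.8 had the highest means.

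At 24 h every layer but the inner centromere and the passenger complex held a gene called as higher with tamoxifen. The outer kinetochore and the separation pair held 1 call each, and differences between layers were not tested. The passenger complex had a median log2 fold of 0.19, above the 0.13 of the spindle checkpoint and the 0.14 of the outer kinetochore. Of the 42 genes, 10 rose in the authors' deposited table (adjusted p under 0.05, DESeq2's Wald test), none fell and 32 did not pass, where 5.90% of the 11648 genes with an adjusted p rose and 6.52% fell. The 10 were Cenpf, Cenpe, Smc4, Knstrn, Bub1b, Ttk, Pttg1, Ncaph, Ncapd2 and Top2a, with log2 folds from 0.24 to 1.05. The median log2 fold of the 42 was 0.17 against -0.000398 over the genes with an adjusted p, and 41 of the 42 values in the authors' deposited table were above 0. At an unadjusted p under 0.05, 18 of the 42 were higher and 0 lower, beside 8.91% and 9.08% of the 15819 genes with a p.

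**Figure D1:**
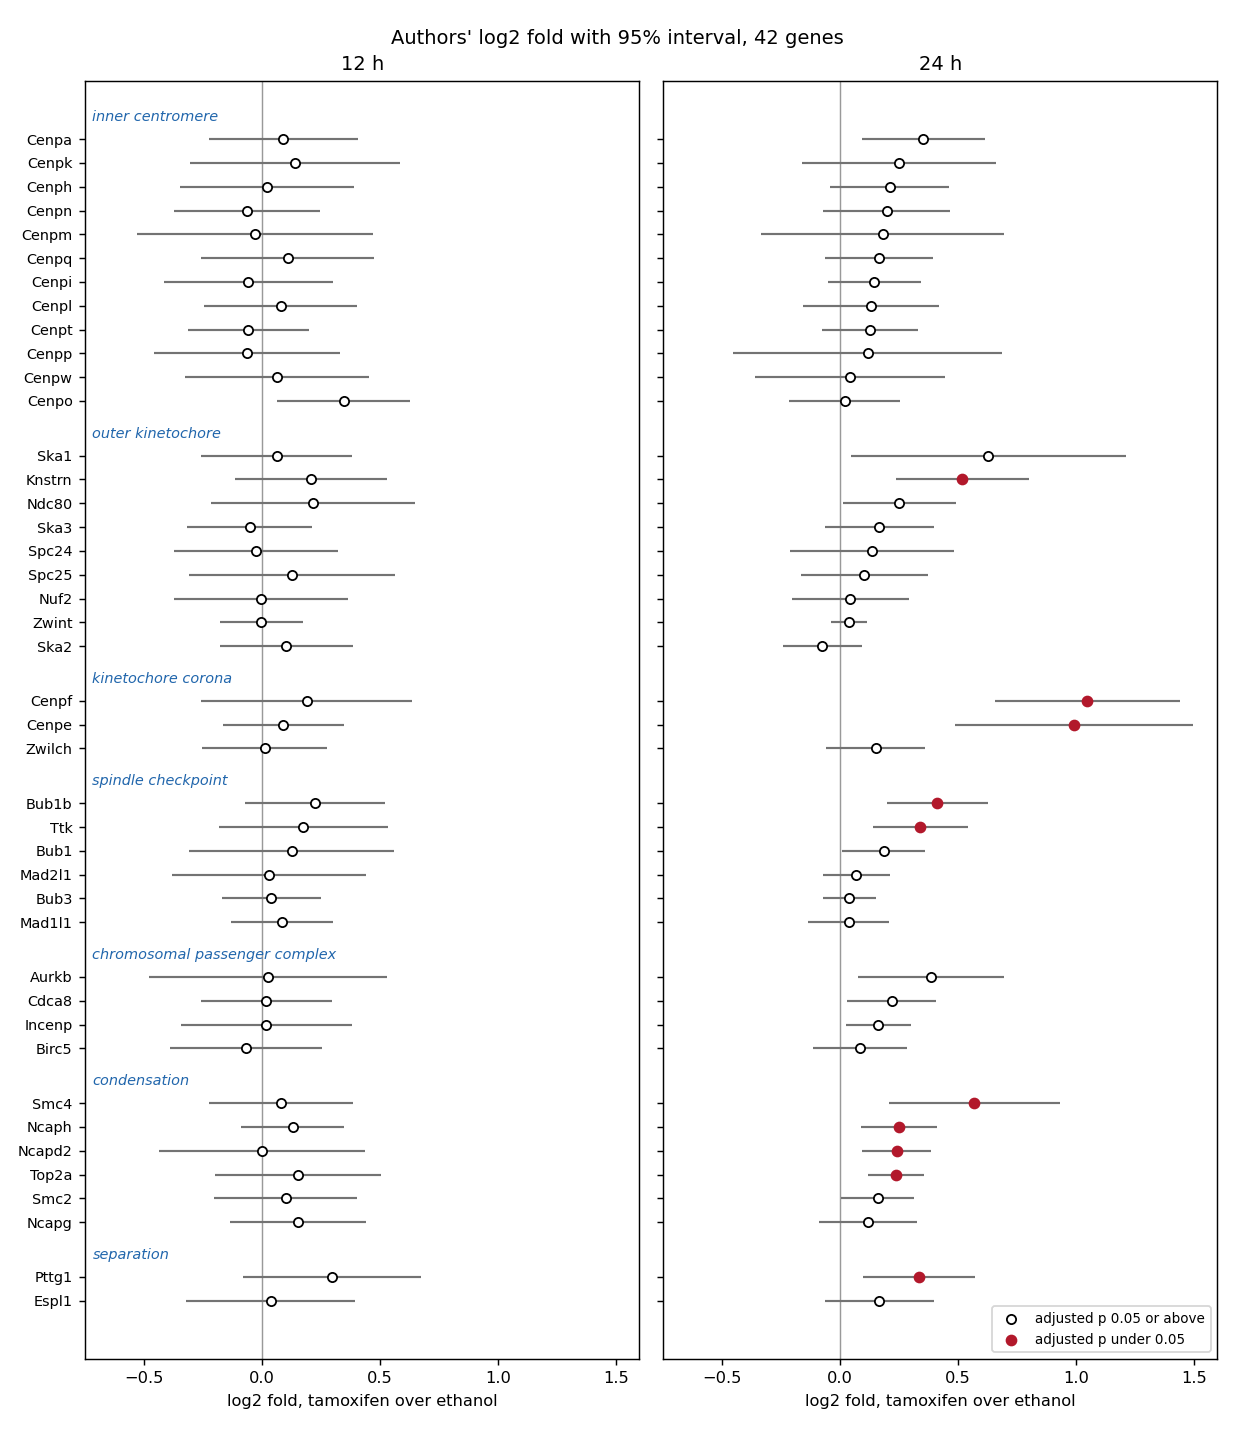
Log2 fold of tamoxifen over ethanol (horizontal axis) for each of the 42 genes at 12 h (left) and 24 h (right), from the authors' tables. Points are the folds and lines the 95% intervals, and filled points have an adjusted p under 0.05. At 24 h 10 genes are filled, with Cenpf and Cenpe farthest to the right, and at 12 h none is.

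The corona of the kinetochore, the outermost layer that first captures microtubules, held the largest folds. Cenpf, a very large coiled-coil corona protein that also binds dynein adaptors, had a derived level of 125 normalised counts with ethanol and 259 with tamoxifen at 24 h. The authors' deposited table gives it a log2 fold of 1.05 (SE 0.20, 95% interval 0.65 to 1.44) and a DESeq2 adjusted p of 7.24e-06. Cenpe, a kinesin motor that moves chromosomes to the spindle equator, had derived levels of 289 with ethanol and 575 with tamoxifen. It rose by 0.99 in the authors' deposited table (SE 0.26, adjusted p 0.00216), a fold of 1.99 with a 95% interval of 1.40 to 2.82. The roughly equal ratios of these genes came at different precision, as the wider interval of Cenpe shows. Zwilch, a subunit of the complex that brings dynein and Mad proteins to the corona, stood at 0.15 (SE 0.11, adjusted p 0.43) in the authors' deposited table and did not pass.

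Chromosome condensation followed, in which 4 of 6 genes rose (66.7%), beside 5.90% of genes with an adjusted p. Smc4, an ATPase subunit of condensin, had derived levels of 1247 normalised counts with ethanol and 1850 with tamoxifen at 24 h and rose in the authors' deposited table by 0.57 (SE 0.19, adjusted p 0.0224 in the Wald test). Its partner ATPase Smc2 stood at 0.16 (SE 0.08, adjusted p 0.19) in the authors' deposited table, which did not pass. Of the subunits particular to condensin I, Ncaph, which bridges the ATPase heads, rose by 0.25 (SE 0.08, adjusted p 0.0262) and Ncapd2 by 0.24 (SE 0.07, adjusted p 0.0152) in the authors' deposited table, while Ncapg stood at 0.12 (SE 0.11, adjusted p 0.56). Top2a, which untangles sister chromatids, was the most abundant riser, at derived levels of 2089 with ethanol and 2465 with tamoxifen. It rose by 0.24 (SE 0.06, adjusted p 0.00168) in the authors' deposited table, a fold of 1.18 with a 95% interval of 1.09 to 1.28.

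In the spindle checkpoint 2 of 6 genes rose (33.3%), beside 5.90% of genes with an adjusted p. Bub1b, whose product holds Cdc20 in the mitotic checkpoint complex, had derived levels of 305 with ethanol and 406 with tamoxifen and rose in the authors' deposited table by 0.41 (SE 0.11, adjusted p 0.00269 in the Wald test). Ttk, the kinase that starts checkpoint signalling, had derived levels of 185 and 234 and rose by 0.34 (SE 0.10, adjusted p 0.0129) in the authors' deposited table. Bub1, the kinase that recruits other checkpoint proteins, stood at 0.18 (SE 0.09, adjusted p 0.18) and did not pass. The core effector Mad2l1 and its kinetochore anchor Mad1l1 had values near 0 in the authors' deposited table, 0.07 (95% interval -0.07 to 0.21) and 0.04 (-0.13 to 0.21). The same holds for Bub3, the WD-repeat partner of Bub1 and Bub1b, at 0.04 (-0.07 to 0.15). The upper bounds of these 3 genes allow a rise of at most 1.16-fold, 1.15-fold and 1.11-fold (Mad2l1, Mad1l1 and Bub3).

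Among outer kinetochore genes 1 of 9 rose (11.1%), beside 5.90% of genes with an adjusted p, so this count is near the share of all genes. Knstrn, which encodes the small kinastrin protein that works with astrin on attached kinetochores, had derived levels of 199 with ethanol and 285 with tamoxifen and rose in the authors' deposited table by 0.52 (SE 0.14, adjusted p 0.00469 in the Wald test). Ska1, of the Ska complex that keeps kinetochores on shortening microtubules, had a larger value at 0.63, but at a mean of 28.4 normalised counts its SE was 0.30 and its adjusted p 0.16 in the authors' deposited table. The other Ska genes stood at 0.17 (Ska3, SE 0.12) and -0.08 (Ska2, SE 0.09), and Ska2 was the 1 gene of the 42 with a value below 0. None of the 4 genes of the Ndc80 complex passed. Their values in the authors' deposited table were 0.25 for Ndc80 (SE 0.12), 0.14 for Spc24 (SE 0.18), 0.10 for Spc25 (SE 0.14) and 0.04 for Nuf2 (SE 0.13). Zwint, which links the corona complex to the outer plate, was the most precisely measured gene, at 0.04 with an SE of 0.04 and an upper 95% bound of 1.08-fold.

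The chromosomal passenger complex and the inner centromere held no called gene at 24 h, where 5.90% of genes with an adjusted p rose. All 16 values were above 0, beside 5813 of the 11648 genes with an adjusted p. The 16 values come from the same libraries, so their signs are not independent. Of the passenger genes, the kinase Aurkb stood at 0.38 (SE 0.16, adjusted p 0.0929), the borealin gene Cdca8 at 0.22 (SE 0.10, adjusted p 0.12), the scaffold Incenp at 0.16 (SE 0.07, adjusted p 0.12) and the survivin gene Birc5 at 0.08 (SE 0.10, adjusted p 0.69) in the authors' deposited table. The first 3 had unadjusted p of 0.0148, 0.0225 and 0.0226. All 12 inner centromere genes had values above 0, with a median of 0.15, and Cenpa was highest at 0.35 (SE 0.13, adjusted p 0.0582 in the Wald test). The other 11, all of the constitutive centromere network, lay between 0.02 (Cenpo) and 0.25 (Cenpk) in the authors' deposited table, and each of their 95% intervals includes 0.

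Of the pair that controls separation, Pttg1 (securin) rose by 0.33 (SE 0.12, adjusted p 0.0457 in the Wald test) in the authors' deposited table, from a derived level of 147 to 185. This call was the nearest to the threshold, and it was lost when the adjustment ran over every gene with a p (adjusted p 0.0619), when the median fold was set to 0 (0.0569) and when the larger of a gene's own and the typical SE was used (0.0733). Espl1, the protease separase, stood at 0.17 (SE 0.12, adjusted p 0.42) and did not pass.

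Because genes of mitosis are known for a shared promoter layout, the start regions of the 10 risers were read from RefSeq on build GRCm38.p6. The windows run from 250 bases before to 50 after the annotated gene start, and 36 of the 42 genes matched, with 40 windows. The 6 risers whose window holds both elements are shown, beside Espl1, a gene that holds both and did not pass. Each is printed 5′ to 3′ on the gene's strand, and capitals mark the cell cycle genes homology region (CHR, searched as TTTGAA or TTTAAA) and the NF-Y box (searched as CCAAT), each on both strands, so that TTCAAA and ATTGG are the same elements read on the other strand.
Cenpf, chr1:189688037-189688336, reverse strand: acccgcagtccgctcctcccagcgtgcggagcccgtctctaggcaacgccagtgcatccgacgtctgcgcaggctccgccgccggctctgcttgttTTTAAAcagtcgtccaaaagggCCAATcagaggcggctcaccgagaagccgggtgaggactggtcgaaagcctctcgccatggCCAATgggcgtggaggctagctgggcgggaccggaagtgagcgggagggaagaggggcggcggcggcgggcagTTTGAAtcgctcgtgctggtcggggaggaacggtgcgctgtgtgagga
Cenpe, chr3:135212313-135212612, forward strand: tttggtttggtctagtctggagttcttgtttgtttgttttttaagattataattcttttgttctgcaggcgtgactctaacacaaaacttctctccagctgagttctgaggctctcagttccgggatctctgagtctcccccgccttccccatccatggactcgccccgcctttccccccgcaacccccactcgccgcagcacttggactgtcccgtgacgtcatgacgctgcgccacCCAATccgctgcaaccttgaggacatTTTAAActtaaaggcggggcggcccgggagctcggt
Bub1b, chr2:118597961-118598260, forward strand: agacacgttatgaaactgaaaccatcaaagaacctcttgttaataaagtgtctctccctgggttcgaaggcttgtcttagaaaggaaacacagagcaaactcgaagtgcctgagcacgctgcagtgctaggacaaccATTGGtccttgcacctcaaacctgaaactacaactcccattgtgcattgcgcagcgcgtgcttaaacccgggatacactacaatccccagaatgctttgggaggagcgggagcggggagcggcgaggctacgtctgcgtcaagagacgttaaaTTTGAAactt
Ttk, chr9:83834439-83834738, forward strand: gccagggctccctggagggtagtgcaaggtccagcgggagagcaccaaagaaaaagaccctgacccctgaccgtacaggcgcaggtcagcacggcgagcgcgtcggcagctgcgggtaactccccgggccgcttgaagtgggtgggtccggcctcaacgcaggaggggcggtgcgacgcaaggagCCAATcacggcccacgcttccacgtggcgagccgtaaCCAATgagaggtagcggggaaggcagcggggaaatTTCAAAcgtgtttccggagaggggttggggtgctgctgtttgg
Top2a, chr11:99024140-99024439, reverse strand: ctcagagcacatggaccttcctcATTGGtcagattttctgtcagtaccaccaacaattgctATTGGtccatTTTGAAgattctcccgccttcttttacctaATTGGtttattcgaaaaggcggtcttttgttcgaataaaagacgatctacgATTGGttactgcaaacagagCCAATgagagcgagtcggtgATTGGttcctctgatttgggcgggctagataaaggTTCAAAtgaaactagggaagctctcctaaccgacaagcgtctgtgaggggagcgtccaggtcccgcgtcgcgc
Ncapd2, chr6:125191537-125191836, reverse strand: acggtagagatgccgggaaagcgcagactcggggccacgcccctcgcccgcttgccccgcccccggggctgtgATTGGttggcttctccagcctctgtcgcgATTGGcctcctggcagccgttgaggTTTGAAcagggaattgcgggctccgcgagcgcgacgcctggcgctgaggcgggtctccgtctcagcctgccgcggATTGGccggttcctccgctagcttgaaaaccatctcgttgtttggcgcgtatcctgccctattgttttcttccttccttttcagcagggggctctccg
Espl1, chr15:102296043-102296342, forward strand: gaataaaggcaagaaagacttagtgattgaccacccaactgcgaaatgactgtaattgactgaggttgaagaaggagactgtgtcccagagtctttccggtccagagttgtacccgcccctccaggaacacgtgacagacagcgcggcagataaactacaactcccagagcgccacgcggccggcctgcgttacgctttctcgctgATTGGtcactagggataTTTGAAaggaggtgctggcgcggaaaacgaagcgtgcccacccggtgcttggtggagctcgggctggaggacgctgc

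In Cenpf a TTTGAA starts 2 bases after the first base of the gene, with NF-Y boxes 71 and 132 bases and a TTTAAA 154 bases before it, and in Ttk a CHR 7 bases after it is preceded by NF-Y boxes 28 and 65 bases before it. Top2a has CHRs 23 and 179 bases before the start and 6 NF-Y boxes between 58 and 227 bases before it. Cenpe has the TTTAAA form 14 bases after the start and 1 NF-Y box 12 bases before it. In Bub1b the CHR lies 40 bases after the start and the NF-Y box 113 before it, and in Ncapd2 the CHR lies 123 bases before the start, among NF-Y boxes at 48, 148 and 177. These distances are counted from the RefSeq start. GENCODE places the first base of Ncapd2 at 125191701 and that of Cenpe at 135212537, both upstream of the RefSeq start. Distances from the GENCODE starts of these genes therefore differ from those given. The windows of Knstrn, Ncaph and Pttg1, also among the risers, hold neither element, and no window was matched for Smc4. The Pttg1 window ends at base 43426231, inside the gene as GENCODE places it, whose first base on the reverse strand is 43426251. It therefore cannot show whether an element lies upstream of that start. Windows of some genes that were not called, such as Cenpt and Cdca8, also lie inside the GENCODE gene. A match in letters is a description of the window and does not show binding.

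The TTTGAA form was found in 18 of the 40 windows (45.0%), against 17.9% of all 32851 windows and 11.7% of the 11391 windows of genes with an adjusted p at 24 h. The NF-Y box was found in 27 of the 40 (67.5%), against 37.4% and 37.8%. A CHR of either form together with an NF-Y box stood in 6 of 9 windows of risers (66.7%) and in 12 of 31 windows of the genes that were not called (38.7%), beside 10.7% of all windows. Here and below, the 9 windows of risers include that of Pttg1, which lies inside the GENCODE gene. The Krüppel-like factor site CCCCACCC was found in 0 of 9 windows of risers and 3 of 31 others, beside 9.99% of all windows and 12.1% of those of genes with an adjusted p at 24 h. The related GC box CCCCGCCC was found in 1 of 9 and 6 of 31, beside 17.6% and 33.4%. The E2F site TTCCCGC was found in 0 of 9 and 7 of 31, beside 1511 of all 32851 windows and 8.53% of those of genes with an adjusted p. Other lists held these elements too. Windows of kinesin and spindle genes held the TTTGAA form in 21 of 28 (75.0%) and a CHR of either form with an NF-Y box in 16 of 28 (57.1%), both larger shares than those of the 42 genes. Windows of DNA replication genes held the TTTGAA form in 4 of 39 and the E2F site in 15 of 39.

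**Figure D2:**
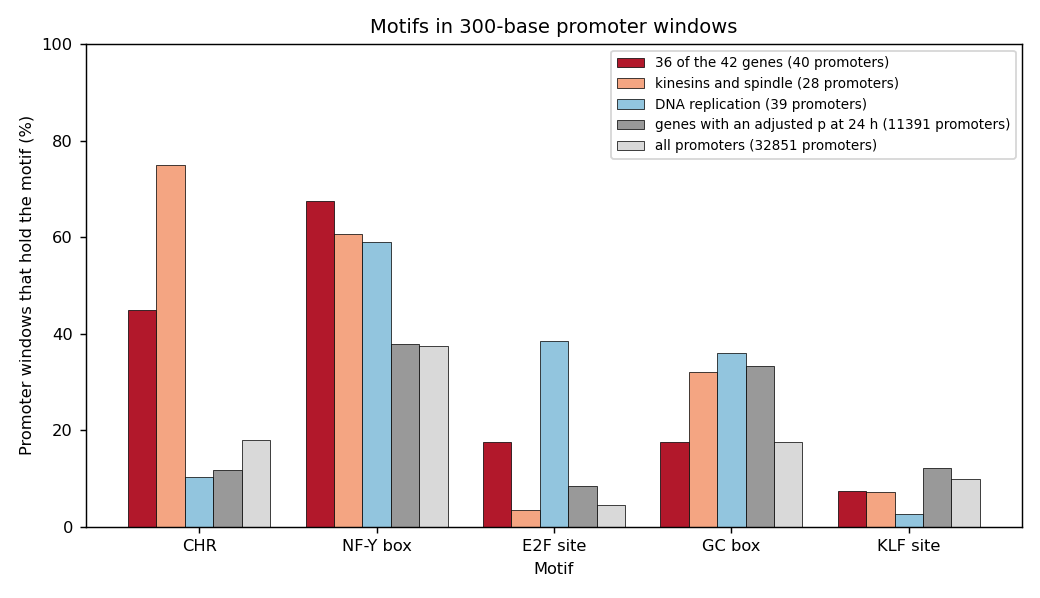
Share of 300-base promoter windows (vertical axis, in %) that hold each motif, for windows of the 36 matched genes, of 2 comparison lists, of genes with an adjusted p at 24 h and of all genes. CHR is the TTTGAA form alone, and the KLF site is the CCCCACCC motif. The 40 windows of the genes described here stand at 45.0% for the CHR and 67.5% for the NF-Y box, those of kinesin and spindle genes at 75.0% and 60.7%, and those of DNA replication genes at 10.3% and 59.0%.

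At 12 h no gene of the 42 passed. By DESeq2's Wald test in the authors' deposited table, 0 rose and 0 fell, beside 0.215% of the 13044 genes with an adjusted p that rose and 0.728% that fell. At an unadjusted p under 0.05 there was 1 gene, Cenpo, at 0.35 (SE 0.14, unadjusted p 0.0161, adjusted p 0.54), where 1.97% of genes with a p were higher and 2.92% lower. Cenpo belongs to the inner centromere and stood at 0.02 (SE 0.12) at 24 h, and 22.5% of its exon bases lie opposite Adcy3 or Ptrhd1, whose reads the library kit does not separate by strand. The same limit holds for Ncapg, Cenpp and Ska2, with 13.4%, 12.6% and 10.1% of exon bases opposite other genes. The values at 12 h ran from -0.07 (Birc5) to 0.35, with a median of 0.07 and 31 of 42 above 0. Over the 13044 genes with an adjusted p the median was -0.006209 and 6336 were above 0. The 12 h values were also less precise, with a median SE of 0.17 against 0.12 at 24 h.

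None of the 10 genes that rose at 24 h passed at 12 h in the authors' deposited table. Their median log2 fold at 12 h was 0.16, against 0.03 for the 32 others. Cenpe stood at 0.09 (SE 0.13, 95% interval -0.17 to 0.35), with derived levels of 1478 normalised counts with ethanol and 1573 with tamoxifen. Cenpf stood at 0.19 (SE 0.23), with derived levels of 1004 and 1144. Smc4 stood at 0.08 (SE 0.16), Knstrn at 0.21 (SE 0.16) and Bub1b at 0.23 (SE 0.15). Pttg1 had the second highest value of the 42 at 12 h, 0.30 (SE 0.19), close to its value at 24 h. Of the 10 genes, 9 had a 12 h value above 0, and the remaining one, Ncapd2, stood at -0.000524 (SE 0.22).

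Whether the response changed between the times was tested as the difference of the 2 folds over all 14981 genes with a p at both times. None of the 42 passed at an adjusted p under 0.05, beside 0.0134% of all genes (2 genes), and 3 had an unadjusted p under 0.05, beside 1.64%. The largest difference was that of Cenpe, 0.90 higher at 24 h (SE 0.29, 95% interval 0.34 to 1.47, unadjusted p 0.00180 and adjusted p 0.9999 in this Wald test). Cenpf differed by 0.86 (SE 0.30, unadjusted p 0.00470) and Smc4 by 0.49 (SE 0.24, unadjusted p 0.0428), with the same adjusted p of 0.9999. For most members the interval of the difference is wide. That of Top2a ran from -0.28 to 0.46 and that of Bub3 from -0.24 to 0.24.

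The 42 genes were also less abundant at 24 h than at 12 h. The tables were normalised separately, so each level was scaled to its table's summed means (CPM), and no error or test is available for this shift. The times share no library, so an effect of time and one of library preparation cannot be told apart. By that measure 41 of the 42 were lower at 24 h, with a median log2 ratio of -1.31, where 55.2% of 10320 genes with a 12 h mean of at least 50 were lower and the median was -0.09. Over the 42 genes the rank correlation of GC content with this log2 ratio was -0.62 (Pearson -0.53), so GC-rich genes tended to stand lower at 24 h. The same correlation was not computed over all genes, and the cause of the relation was not tested. Aurkb went from 73.5 to 8.29 CPM, or 11.3% of its 12 h level, Birc5 from 166 to 27.2, and Cenpm kept 13.2% of its 12 h level. The exception was Zwint, at 327 CPM at 12 h and 384 at 24 h. Smc4 and Smc2, which also serve condensin II, kept 88.7% and 81.5% of their 12 h level, and the inner centromere gene Cenpq kept 77.9%. Why some genes kept more of their level was not tested. The median log2 ratio was -1.17 over 40 DNA replication genes and 0.29 over 18 cohesin and condensin II genes.

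**Figure D3:**
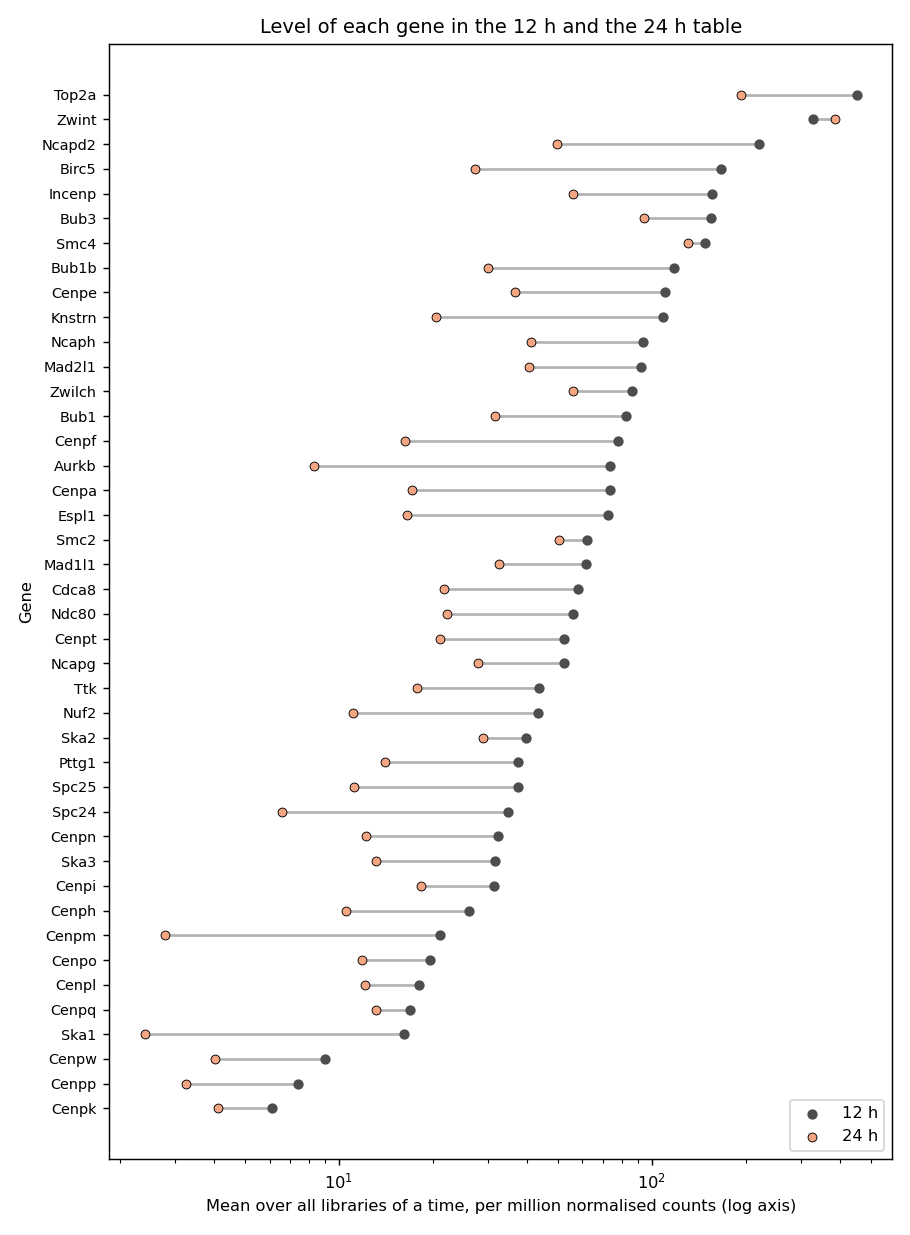
Mean level of each gene (horizontal log axis, CPM of a table's summed means) at 12 h (dark points) and 24 h (light points), averaged over ethanol and tamoxifen libraries; the tables were normalised separately. The line joins the 2 values of a gene, and Zwint is the 1 gene whose 24 h point lies to the right, at 384 against 327.

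Per kilobase of the longest GENCODE transcript, the order of levels was led at both times by Zwint (122 CPM per kilobase at 12 h and 143 at 24 h) and Top2a (86.5 and 36.8). At 12 h Cenpa came next, closely followed by Birc5, Incenp and Ncapd2 at 49.9, 48.0 and 47.7. At 24 h Smc4 at 30.3 and Bub3 at 27.7 followed Zwint and Top2a, while Birc5 stood at 8.17. The lowest were Cenpw at 2.19 at 12 h and Ska1 at 0.913 at 24 h. Neighbours in this order were not tested, since no spread of a level is at hand, and the true transcript in use can be shorter.

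Spread between libraries was uneven among the risers. The SE of each gene was divided by the median SE of genes of similar mean. At 24 h this ratio was 3.37 for Smc4, 3.18 for Cenpe, 1.79 for Cenpf, 1.55 for Zwilch and 1.39 for Knstrn, and the other 37 genes lay between 0.785 (Zwint) and 1.24 (Bub1b). A ratio above 3 was found for 2 of the 42 genes and for 0.691% of the 9983 genes with a mean of at least 50, and a ratio above 1.5 for 4 of the 42 and 4.91% of those genes. The calls of Smc4 and Cenpe thus came with SEs over 3 times the typical one, and the files do not show which libraries differed. Ttk, Ncapd2 and Pttg1 had ratios of 0.947, 1.01 and 0.985. At 12 h the highest ratios were 1.78 for Aurkb and 1.73 for Ncapd2, and that of Cenpe was 0.996.

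**Figure D4:**
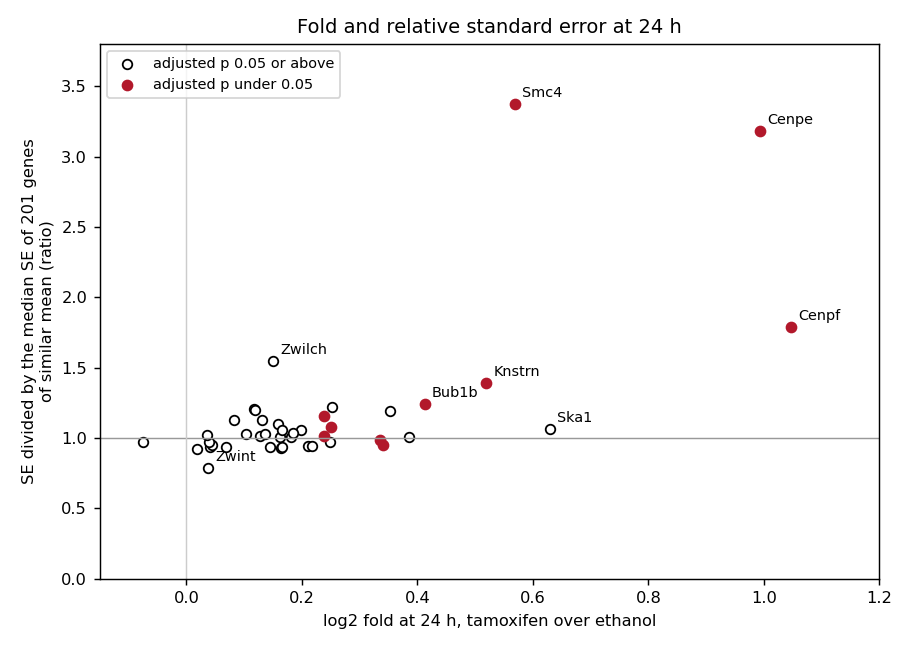
Log2 fold at 24 h (horizontal axis) against the SE of the gene divided by the median SE of genes of similar mean (vertical axis), 1 point per gene; filled points have an adjusted p under 0.05. Smc4 at 3.37 and Cenpe at 3.18 stand above the rest, whose highest ratio is 1.79 for Cenpf.

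Transcript length and base composition were set beside the folds. The longest coding transcripts of Cenpf and Cenpe, at 11130 and 7910 bases, are the longest of the 42, and the median length was 4459 bases for the 10 risers and 2635 for the 32 others. Over the 42 genes the rank correlation of length with the 24 h fold was 0.03 (Pearson 0.50), given as a description of genes that share libraries. That of GC content with the 24 h fold was 0.16 (Pearson -0.03). With the trend on length and GC content over all genes removed, the 10 risers were called again and Cenpa was added, at 0.41 (adjusted p 0.0280). Cenpf and Cenpe stood at 1.02 and 0.97 in that fit.

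Other genes of the same processes were read from lists chosen by function, with earlier results of these data known. Of 27 further centromere and kinetochore genes, 4 rose at 24 h in the authors' deposited table and none fell, with a median of 0.10. Among them were Casc5 (Knl1), the scaffold on which Bub proteins dock, at 0.83 (SE 0.16), the microtubule depolymerase Kif2c at 0.48 (SE 0.13) and the cohesin protector Sgol2a at 0.47 (SE 0.14). Of 28 mitotic kinase and anaphase promoting complex genes 5 rose and none fell, among them cyclin B1 (Ccnb1) at 0.35 (SE 0.10), Cdc20 at 0.30 (SE 0.09) and Plk1 at 0.33 (SE 0.10) in the authors' deposited table. Of 18 cohesin and condensin II genes 2 rose, the cohesin loader Nipbl at 0.43 (SE 0.09) and the cohesin subunit Rad21 at 0.12 (SE 0.04). Kinesin and spindle genes counted 8 rises of 27 with a median of 0.17, and Kif20b had the smallest p, at 0.77 (SE 0.16). DNA replication genes counted 0 rises and 1 fall (Orc6 at -0.24, SE 0.08) of 40, with a median of -0.04. The share that rose was 23.8% of the 42 genes, 29.6% of the kinesin and spindle list and 17.9% of the mitotic kinase list. It was 14.8% of the further centromere and kinetochore genes and 11.1% of the cohesin and condensin II list, beside 5.90% of genes with an adjusted p. Differences between lists were not tested. At 12 h none of these 5 lists held a called gene in the authors' deposited table.

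**Figure D5:**
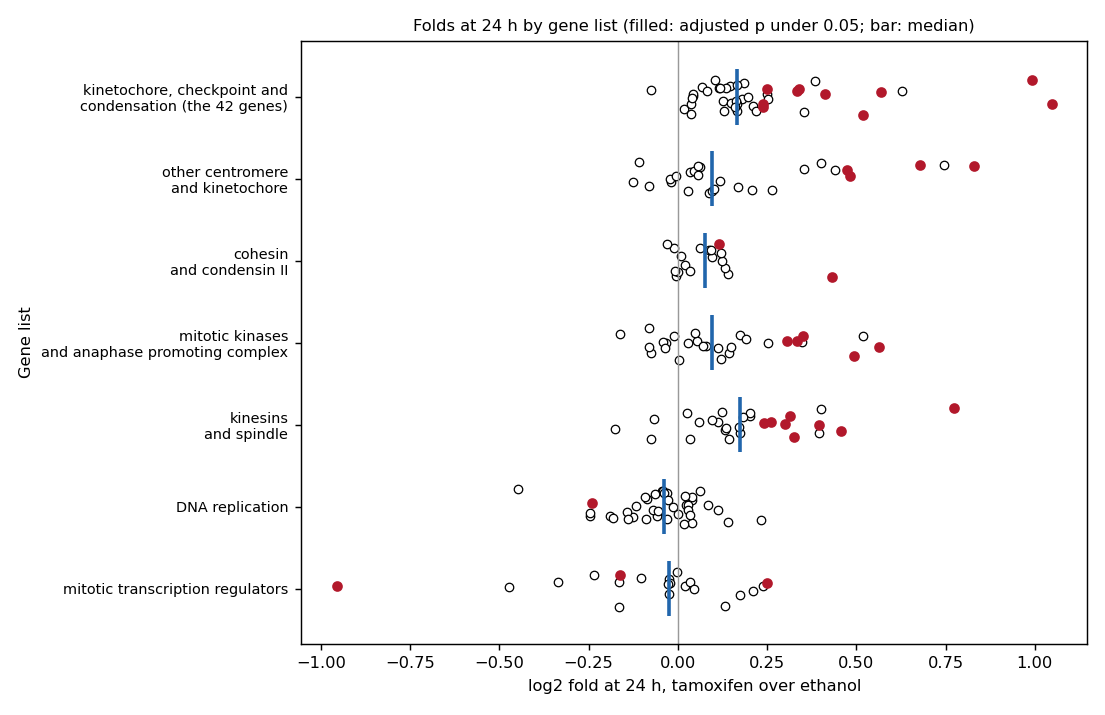
Log2 fold of tamoxifen over ethanol at 24 h (horizontal axis) for the 42 genes and 6 comparison lists (rows), 1 point per gene, with filled points at an adjusted p under 0.05 and a bar at the list's median; vertical scatter within a row has no meaning. The medians are 0.17 for the 42 genes and -0.04 for DNA replication.

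Of 21 regulators known for driving or restraining mitotic transcription, 1 rose and 2 fell at 24 h in the authors' deposited table, with a median of -0.02. Over the 11648 genes with an adjusted p, 5.90% rose and 6.52% fell, so counts of this size are near the shares of all genes. The rise was Rbl2, a pocket protein of the DREAM repressor, at 0.25 (SE 0.07), and the falls were E2f2 at -0.96 (SE 0.19) and E2f4 at -0.16 (SE 0.05). Foxm1, an activator of mitotic genes, stood at 0.21 (SE 0.08, adjusted p 0.0722) and its partner Mybl2 at -0.23 (SE 0.17, adjusted p 0.41), both named after their values were seen.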

How the data were processed

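Per the submitters' processing notes, HISAT2, mm10 and DESeq2 are named without versions; the counter and annotation are not named in those sources. Libraries were made with a TruSeq RNA v2 kit, which does not mark strand, per the labels. Per the file headers, the authors' deposited tables give per gene and time the mean normalised count (a signal, counts over size factors), the log2 fold change with its SE, the Wald score, its p-value and an adjusted one. The deposited adjusted p equals a Benjamini-Hochberg adjustment over the 13044 genes at 12 h and 11648 at 24 h that have one.

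Calls use the authors' DESeq2 Wald test, run across all genes, with 0.05 as the limit of the adjusted p. The times were compared by subtracting the 12 h from the 24 h fold and dividing by the SE of that difference. This was a two-sided Wald test with Benjamini-Hochberg adjustment over all 14981 genes. The step was tested on simulated normal folds drawn with the deposited SEs. Such folds meet the assumptions of the test, so the simulation cannot check those assumptions. The design foresaw counts per library or, failing these, the deposited comparison, which applied. Positions, lengths and GC come from GENCODE M21 (GRCm38), and promoter windows from RefSeq (GRCm38.p6). Python 3.11.15, matplotlib 3.10.9, scipy 1.17.1, pandas 2.3.3 and numpy 2.4.6 were used. All 42 genes are named; of other lists, up to 4 called genes with the smallest p at 24 h were eligible. The genes and lists were chosen with earlier results of these data known. The 12 h ethanol libraries carry the numbers 1, 3 and 4, and number 2 was not analysed here. Some genes of the comparison lists are not reported here.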

Additional observations from a re-analysis of the deposited data

How the results depend on the processing

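The count of 10 rises at 24 h was 9 when the adjustment ran over every gene with a p, 10 when the mean had to reach 50, 9 with the median fold set to 0, 11 with the length and GC trend removed and 9 with the larger of the own and typical SE; Pttg1 was the gene lost in each case of 9. At a threshold of 0.01 it was 5, without Ttk, Smc4, Ncapd2, Ncaph and Pttg1. Under these 6 settings the counts at 12 h stayed at 0, as did the count of differences between times under the 4 settings run for it. With the median fold set to 0, the 12 h values of Nuf2, Zwint and Ncapd2 turned to 0.00079, 0.0019 and 0.0042. With the length and GC trend removed, those of Cenpm, Mad2l1 and Ncapd2 at 12 h turned to 0.0014, -0.0175 and 0.0151, and that of Cenpw at 24 h to -0.0124. The cause was not tested. In the last 150 bases of the promoter windows the TTTGAA form stood in 15 of 40 and the NF-Y box in 20 of 40, while the E2F site TTCCCGC stayed at 7. The counts of some other motifs moved by over 1.5 times: the GC box from 7 to 2, the CCCCACCC site from 3 to 1, TTTAAA from 7 to 4 and the E2F variant TTTGGCGC from 2 to 1. No paired analysis was possible because the files hold no value per library; for the same reason leaving out each replicate was not run, and which library carries a large SE is unknown. Depth limits the low genes most, as for Ska1 and Cenpm, whose 24 h means were 28.4 and 32.8 normalised counts.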
